A study of Homo sapiens with 30 samples.

Results

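SUSD3, WFS1, NFIA and PECAM1 are 4 genes whose transcripts were nearly absent from at least 1 of 5 T-cell acute lymphoblastic leukaemia lines and gained most, on the log2 scale, in that line when decitabine was given. They were selected on these same measurements, as genes whose response differed most between the lines and was largest where the DMSO level was lowest, so their levels and changes are described here without a test. They are 4 of 60554 gene identifiers in the files and 4 of the 15081 genes with enough reads to be tested, and all 4 passed that filter. The established human lines were Loucy, PER-117, PEER, MOLT-16 and TALL-1. Each was given decitabine at 1 µM for 48 h or DMSO, the solvent control, and 3 libraries were made per line and treatment, 30 in all. The libraries held the 3′ ends of messenger RNA, and the values are read counts on the gene's own strand, scaled here to CPM, a gene's reads relative to the size of its library. Whether the 3 libraries of a group came from separate cultures is not stated in the labels, so spreads and p-values measure only the differences between these samples, which may be technical.

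Decitabine is a cytidine analogue that is built into DNA and traps DNA methyltransferases, so that methylation of CpG sites is lost as cells divide. Genes held silent with dense promoter methylation can be transcribed again in treated cells, and this differs from cell to cell with the genes that were silent to begin with. The 4 genes have unrelated products. SUSD3 encodes a small membrane protein with a sushi domain that has been studied mainly in breast cancer cells. PECAM1 encodes CD31, an adhesion receptor of the immunoglobulin superfamily found on endothelium, platelets and leukocytes, whose tail carries inhibitory tyrosine motifs (ITIMs) that recruit phosphatases. WFS1 encodes wolframin, a membrane protein of the endoplasmic reticulum that is mutated in Wolfram syndrome and acts in calcium balance and the stress response of that compartment. NFIA encodes a transcription factor of the nuclear factor I family, known for its part in making glial cells and in the choice between red cell and granulocyte fates.

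The stretches before the starts of 3 of the 4 genes are shown because decitabine lowers methylation at CpG sites. They are the 250 bases before the start in RefSeq (GRCh38.p14), all on the plus strand, with each CG in capitals. The first runs along chr9:93058451-93058700, the second along chr4:6269600-6269849 and the third along chr1:61076977-61077226, before the first of the 3 RefSeq starts of NFIA. The last 13 bases of the first fall inside an exon of SUSD3 in GENCODE 29, and all of the third lies inside the longer GENCODE body of NFIA.
SUSD3: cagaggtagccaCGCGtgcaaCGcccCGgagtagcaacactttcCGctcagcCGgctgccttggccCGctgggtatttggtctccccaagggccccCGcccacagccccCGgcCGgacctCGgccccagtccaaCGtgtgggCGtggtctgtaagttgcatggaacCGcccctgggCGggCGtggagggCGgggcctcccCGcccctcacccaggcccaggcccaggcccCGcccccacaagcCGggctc
WFS1: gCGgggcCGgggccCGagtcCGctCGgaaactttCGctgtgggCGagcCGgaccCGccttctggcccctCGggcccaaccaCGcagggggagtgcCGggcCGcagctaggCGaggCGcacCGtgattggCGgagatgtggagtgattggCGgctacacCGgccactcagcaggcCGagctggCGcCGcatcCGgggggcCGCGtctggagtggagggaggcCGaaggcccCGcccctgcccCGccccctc
NFIA: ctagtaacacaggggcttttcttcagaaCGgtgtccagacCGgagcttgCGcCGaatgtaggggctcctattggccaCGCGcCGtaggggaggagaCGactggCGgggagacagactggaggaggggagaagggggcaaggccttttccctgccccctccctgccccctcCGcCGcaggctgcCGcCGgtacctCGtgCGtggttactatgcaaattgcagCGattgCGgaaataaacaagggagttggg
The dinucleotide CG, which reads the same on both strands, occurs 20 times in the SUSD3 stretch, 28 times in that of WFS1 and 17 times in that of NFIA. In windows of 300 bases, from 250 before the start to 50 after it, SUSD3 held 26 CG and WFS1 33 CG, and both windows had a GC content of 73.3%. Of all 35116 RefSeq windows of that length, 96.0% hold at least 1 CG and the median holds 14, while 30.1% hold at least as many as SUSD3 and 17.2% at least as many as WFS1. The 3 NFIA windows differed among themselves, with 20 CG at the start at 61077227, 10 at 61081739 and 41 at 61082561, numbers reached by 41.2%, 56.4% and 6.69% of all windows. Methylation of these stretches was not measured in these libraries.

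Libraries held 2.20 M to 15.4 M reads on gene strands, with 9.93 M or more in Loucy and PER-117, so that 1 read stood for 0.112 CPM in the shallowest PER-117 library. Of the 15 T-cell markers listed, 14 passed the filter, and their summed level ran from 617 CPM in a PER-117 decitabine library to 19200 CPM in a MOLT-16 DMSO library. The CD3 chains were present in all 5 lines, while CD5 was almost absent from PER-117, with 5 reads with decitabine and 7 with DMSO. The 3 libraries TALL-1 DMSO replicate 3, MOLT-16 DMSO replicate 3 and PEER DMSO replicate 2 stood apart. Genes restricted to PEER were found at 15.0% of their PEER level in that TALL-1 library and at 21.4% in that MOLT-16 library, and genes restricted to MOLT-16 at 4.71% in that PEER library. In the other 12 DMSO libraries such shares were at most 0.133%. The shares are medians over few genes, 7 for PEER and 10 for MOLT-16. They were computed for DMSO libraries only, so transcripts of other lines in decitabine libraries were not looked for. Some values that rest on these 3 libraries are given with and without them. The others, and the shares of all genes called, are given with them. The responses of all 4 genes in Loucy and PER-117 do not rest on them.

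SUSD3 (ENSG00000157303.10, chromosome 9, 93058688 to 93085138, plus strand, GRCh38) was close to silent with DMSO in PER-117 and Loucy and rose there. In PER-117 the decitabine libraries held 5.03, 5.30 and 6.73 CPM, against 0.671, 0.417 and 0.216 CPM with DMSO. In Loucy they held 3.92, 3.56 and 2.82 CPM, against 0.461, 0.584 and 0.478 CPM with DMSO. Every decitabine library lay above every DMSO library in both lines, and no decitabine library of these lines reached the level of any library of the other 3 lines. The mean of PER-117 was 13.1-fold higher with decitabine (log2 change 3.11, SE 0.31, n = 3 each, from 197 reads against 12), and that of Loucy 6.76-fold higher (log2 change 2.28, SE 0.15, from 152 reads against 24). Since RNA was pooled from whole cultures, fewer cells with the transcript and less of it per cell cannot be told apart.

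Where SUSD3 was already expressed, its libraries overlapped between treatments or stood slightly lower with decitabine. MOLT-16 held 62.9, 57.2 and 46.6 CPM with decitabine, against 52.1, 37.8 and 41.1 CPM with DMSO (log2 change 0.35, SE 0.19). TALL-1 held 40.9, 37.4 and 42.1 CPM with decitabine, against 46.1, 38.9 and 41.0 CPM with DMSO (log2 change -0.07, SE 0.09). PEER was the intermediate line for this gene and the only one with all decitabine libraries below all DMSO libraries. Its values were 16.3, 17.6 and 15.2 CPM with decitabine, against 18.4, 21.9 and 20.7 CPM with DMSO (log2 change -0.30, SE 0.09, or -0.25 without the mixed library). With DMSO the order from low to high was PER-117, Loucy, PEER, TALL-1 and MOLT-16, and the ranges of PER-117 and Loucy overlapped, as did those of TALL-1 and MOLT-16. With decitabine Loucy became the lowest line and no neighbouring ranges overlapped.

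PECAM1 (ENSG00000261371.5, chromosome 17, 64319415 to 64413776, minus strand) was nearly silent in Loucy alone. The Loucy libraries held 8.99, 9.10 and 10.3 CPM with decitabine, against 0.197, 0.234 and 0.205 CPM with DMSO, from 412 reads against 10. The values within each treatment were close to each other and the treatments lay far apart, with a mean 44.7-fold higher with decitabine (log2 change 4.38, SE 0.07). The level reached, 9.46 ± 0.730 CPM (SD, n = 3), overlapped the PEER decitabine range and was 27.8% of the DMSO mean of MOLT-16, the line with the most.

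The other lines carried PECAM1 before treatment. MOLT-16 held 42.3, 43.1 and 47.4 CPM with decitabine, against 30.1, 42.9 and 29.2 CPM with DMSO (log2 change 0.38, SE 0.18). TALL-1 held 32.2, 21.4 and 25.2 CPM with decitabine, against 30.3, 26.3 and 28.8 CPM with DMSO (log2 change -0.12, SE 0.18). PER-117, silent for WFS1 and nearly so for SUSD3, held PECAM1 at 23.6, 18.2 and 18.3 CPM with decitabine, against 27.4, 23.7 and 24.7 CPM with DMSO (log2 change -0.33, SE 0.14). In these 3 lines the 2 treatments overlapped, except in PER-117, where all decitabine values lay just under all DMSO values. PEER had the second lowest DMSO level and the second largest log2 change. It held 7.71, 13.2 and 14.0 CPM with decitabine, against 4.57, 9.35 and 2.89 CPM with DMSO (log2 change 0.95, SE 0.54). The overlap came from DMSO replicate 2, the mixed library, in which genes restricted to MOLT-16 stood at a median of 4.71% of their MOLT-16 level. MOLT-16, the line richest in PECAM1, averaged 34.1 CPM of it with DMSO. Without that library the PEER DMSO mean was 3.73 CPM, the treatments did not overlap and the log2 change was 1.47 to 1.48, and the part of the mixed library in this value was not tested.

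WFS1 (ENSG00000109501.13, chromosome 4, 6269849 to 6303265, plus strand) went against the description of a gene that rises only where it is silent. It was silent in PER-117, where it held 3.70, 3.79 and 5.35 CPM with decitabine, against 0.112, 0 and 0 CPM with DMSO. Those values stand for 148 reads against 1, a ratio of 118 with a 95% counting interval of 20.8 to 4690. Yet the highest level of this gene anywhere was reached in Loucy, a line that was not silent for it. Loucy held 25.9, 28.6 and 27.7 CPM with decitabine, against 2.24, 2.28 and 1.91 CPM with DMSO, a mean 12.8-fold higher (log2 change 3.53, SE 0.08, 1203 reads against 101). MOLT-16 held 5.88, 7.83 and 6.71 CPM with decitabine, against 1.53, 0.893 and 2.35 CPM with DMSO (4.28-fold, log2 change 1.86, SE 0.36). Without the mixed MOLT-16 library, the highest of its DMSO values, the DMSO mean was 1.21 CPM and the log2 change 2.18.

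The lines with the most WFS1 with DMSO were PEER and TALL-1, whose DMSO ranges overlapped, and they differed in response. PEER held 8.53, 8.04 and 10.2 CPM with decitabine, against 5.83, 2.67 and 4.54 CPM with DMSO (2.05-fold, log2 change 0.97, SE 0.33). The treatments did not overlap in PEER, but without DMSO replicate 2, the mixed library and the lowest of the 3 values, the DMSO mean was 5.18 CPM, the log2 change was 0.72 to 0.75 and the difference was under 2-fold. It was also under 2-fold without PEER decitabine replicate 3. TALL-1 held 4.60, 3.59 and 3.82 CPM with decitabine, against 3.86, 4.43 and 3.22 CPM with DMSO, and its treatments overlapped (log2 change 0.06, SE 0.16). Loucy and MOLT-16 had overlapping DMSO ranges and log2 changes of 3.53 and 1.86, so the order of DMSO levels was not the order of the changes within this gene.

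NFIA (ENSG00000162599.15, chromosome 1, 60865259 to 61462793, plus strand) was silent in Loucy, with 1 read in 3 DMSO libraries. Loucy held 5.34, 4.16 and 4.03 CPM with decitabine, against 0.0658, 0 and 0 CPM with DMSO. Those are 198 reads against 1, a ratio of 212 with a counting interval of 37.7 to 8430. The 3 decitabine libraries lay far above the DMSO libraries of the line and still below every library of PEER, MOLT-16 and PER-117, at 11.4% of the DMSO mean of PER-117.

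No other line changed its NFIA level by 2-fold. PER-117, the line with the most, held 42.0, 32.3 and 40.8 CPM with decitabine, against 44.0, 39.0 and 35.7 CPM with DMSO (log2 change -0.05, SE 0.15). PEER held 28.7, 26.4 and 22.9 CPM with decitabine, against 23.9, 17.0 and 21.9 CPM with DMSO (log2 change 0.32, SE 0.17). Both lines had overlapping treatments. MOLT-16 held 10.6, 13.7 and 15.0 CPM with decitabine, against 10.7, 21.1 and 16.2 CPM with DMSO (log2 change -0.31, SE 0.32). TALL-1 held 10.8, 10.3 and 6.88 CPM with decitabine, against 4.94, 6.40 and 10.0 CPM with DMSO (log2 change 0.40, SE 0.35). The highest TALL-1 DMSO value was that of the mixed library, in which genes restricted to PEER stood at a median of 15.0% of their PEER level. PEER holds more NFIA than TALL-1 and averaged 20.9 CPM with DMSO. Without the mixed library the TALL-1 DMSO mean was 5.67 CPM and the log2 change 0.75, with no overlap between treatments. The part of the mixed library was not tested.

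**Figure D1:**
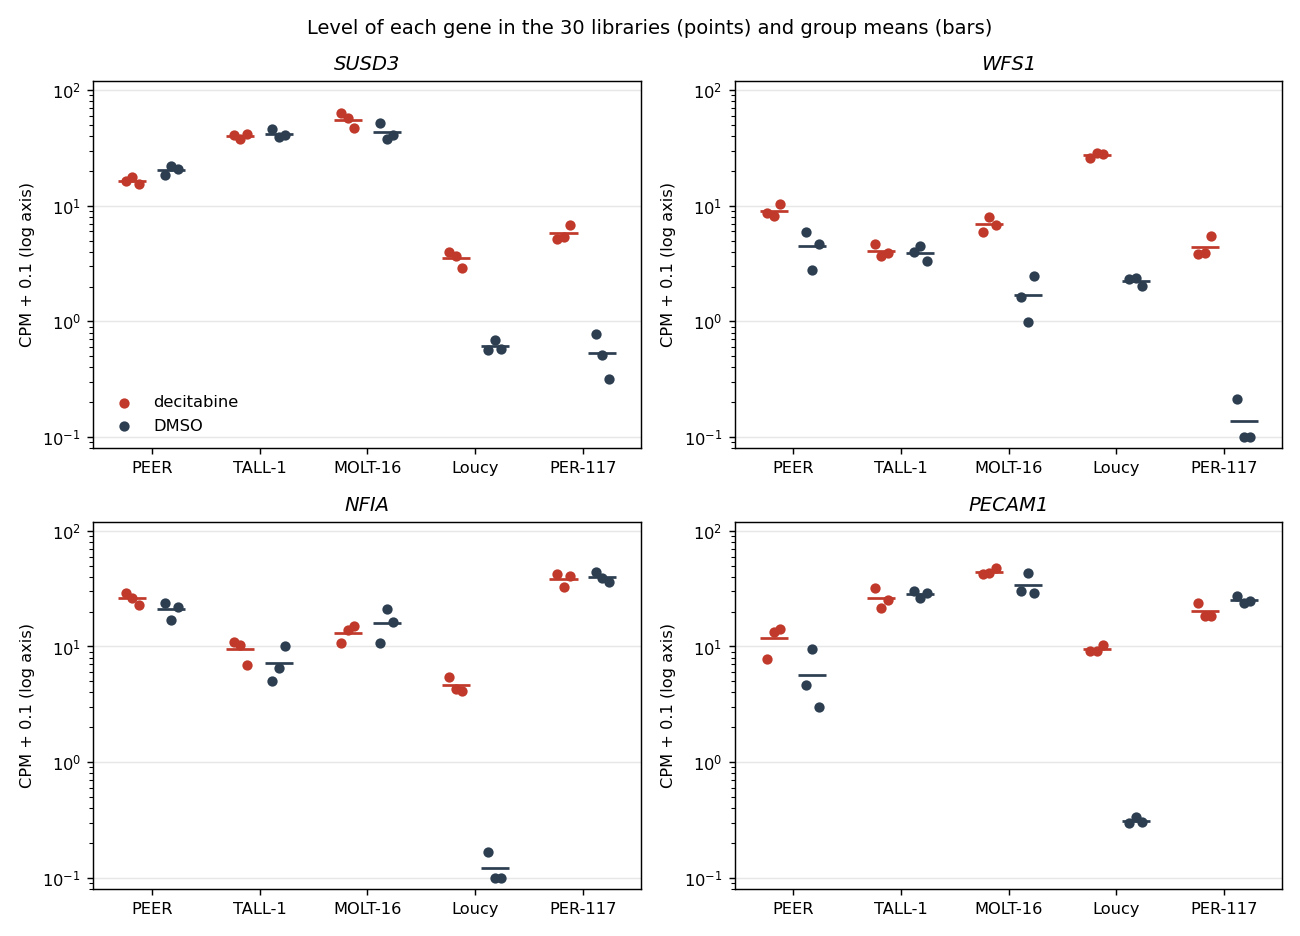
Level of SUSD3, WFS1, NFIA and PECAM1 in each of the 30 libraries, as CPM plus 0.1 on a log axis, by cell line, with decitabine to the left of DMSO. Points are libraries and bars are means of 3, and the DMSO points near the floor are SUSD3 in Loucy and PER-117, WFS1 in PER-117, and NFIA and PECAM1 in Loucy.

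Read across the 4 genes, Loucy was the lowest line for 2 of them and PER-117 for the other 2, and no gene was lowest in PEER, TALL-1 or MOLT-16. The genes that were at least 2-fold higher in mean CPM with no overlap between treatments were all 4 in Loucy, where 10.8% of the 15081 genes met that rule. They were SUSD3 and WFS1 in PER-117, where 9.32% of genes met it. WFS1 was the only one to do so in MOLT-16 (3.98% of genes) and in PEER (5.84%), and none did in TALL-1 (5.21%). Because the choice of the genes used these values, nothing is read from their counts against those shares. A response that differed between the lines was called for 2049 genes, 13.6% of those tested. By the size of that F value SUSD3, PECAM1, NFIA and WFS1 took ranks 2 to 5, with F values of 56.6, 46.9, 39.7 and 37.7. Just outside them were ARRDC3 at rank 1 (65.6), whose change was largest in TALL-1 while its lowest DMSO level, 21.2 CPM, was in MOLT-16, and GGA2 at rank 6 (34.9).

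The lines stayed apart with decitabine, though less far than with DMSO. The highest line exceeded the lowest 16.2-fold with decitabine for SUSD3, against 100.0-fold with DMSO, and 4.67-fold with decitabine for PECAM1, against 161-fold with DMSO. For WFS1 and NFIA it was 6.85-fold and 8.49-fold with decitabine, and with DMSO the lowest line held 1 read of each. In the line where each was lowest, SUSD3 reached with decitabine 13.0% of the DMSO mean of the highest line, and WFS1 98.4%. The WFS1 figure is high because no line held more than 4.35 CPM of it with DMSO. The size of the change also depended on the scale. In CPM rather than log2, SUSD3 gained 5.26 CPM in PER-117 and 11.9 CPM in MOLT-16, where the treatments overlapped. PECAM1 gained 9.25 CPM in Loucy and 10.2 CPM in MOLT-16, and NFIA 4.49 CPM in Loucy and 5.06 CPM in PEER, again with overlapping treatments in the second line of each. WFS1 gained most in Loucy on the CPM scale, 25.3 CPM, and most in PER-117 on the log2 scale, 3.97 against 3.53.

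**Figure D2:**
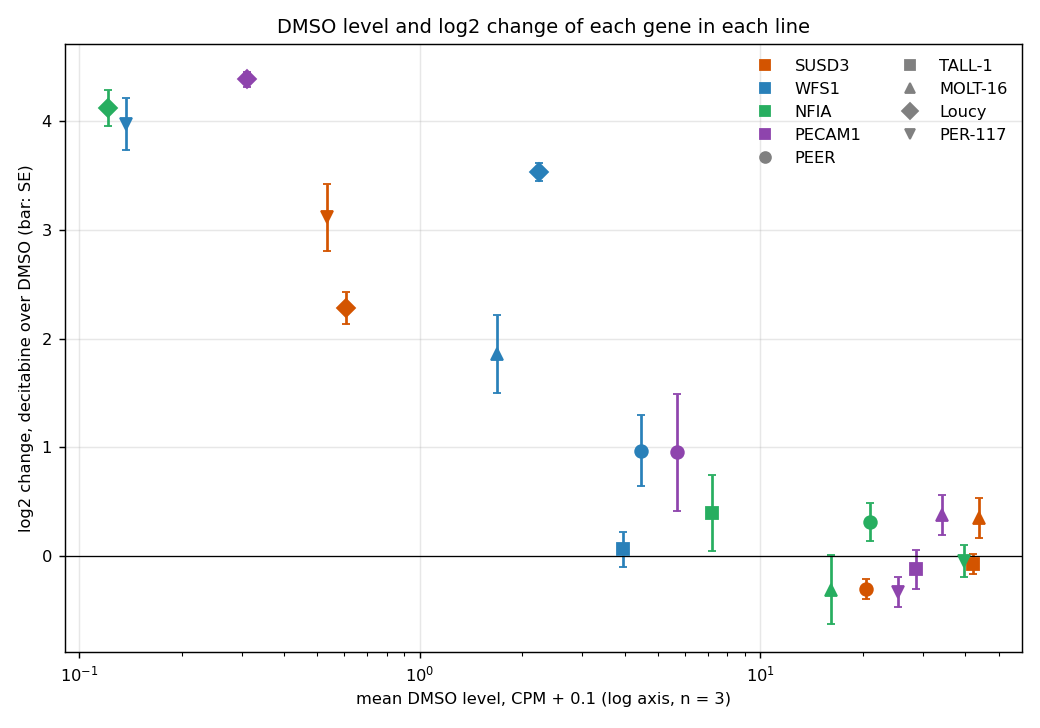
Log2 change with decitabine (vertical axis, bars are SE) against the mean DMSO level in CPM plus 0.1 (log axis) for each gene, by colour, in each line, by symbol. The 5 points under 1 CPM lie between 2.28 and 4.38, the points above 10 CPM lie between -0.33 and 0.38, and WFS1 in Loucy, at 2.14 CPM, has 3.53.

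The DMSO level enters both axes of that plot, and the genes were picked for the pattern in it. Over the 10 group means of log2 CPM the 4 genes did not follow a shared course. Pearson's r was 0.762 for NFIA with PECAM1, which share Loucy as their silent line, 0.581 for PECAM1 with SUSD3 and 0.383 for SUSD3 with WFS1. It was 0.326 for NFIA with SUSD3, -0.06 for PECAM1 with WFS1 and -0.16 for NFIA with WFS1. These are descriptions over 10 points that come from the same 30 libraries.

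Reads on the strand opposite to each gene were not used in choosing them. Over the 30 libraries SUSD3 had 0 opposite-strand reads beside 3233 on its own strand, WFS1 5 beside 1874, NFIA 3 beside 4033 and PECAM1 4 beside 3685. None of the 4 passed the filter for a test on that strand, so no change there could be tested at this depth.

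Genes that lie within 250 kb of the 4 bodies were likewise no part of the choice, and they were tested. The distance itself was set with earlier results of these data known. There are 43 annotated, of which 19 had enough reads. In Loucy 5 of the 19 were higher with decitabine and 1 was lower by edgeR's quasi-likelihood test at a Benjamini-Hochberg adjusted p under 0.05, where 10.6% of all genes were higher and 4.13% lower. In PER-117 1 was higher and 1 lower (8.67% and 3.16% of all genes). In TALL-1 2 were higher (6.74%) and none lower (6.12%), in PEER 1 was higher (3.54%) and none lower (0.961%), and in MOLT-16 1 was higher (2.19%) and none lower (1.01%). MILR1 passed the filter on low counts only through the Loucy decitabine libraries, and WNK2 only through those of TALL-1. Without them, 4 of 18 were higher in Loucy and 1 of 18 in TALL-1. Most neighbours of a gene that rose were therefore not called.

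For WFS1, NFIA and PECAM1 the nearest tested neighbour was called higher in Loucy, and for SUSD3 it was not. PPP2R2C, a regulatory subunit of a serine/threonine phosphatase, lies 17.3 kb beyond the 3′ end of WFS1. It held 3.65, 1.39 and 3.70 CPM with decitabine in Loucy and 0 reads with DMSO, at least 44.0-fold higher if the group is given the 3 counts that 0 reads allow (edgeR adjusted p = 3.36e-05). In the other lines its log2 changes ran from -1.06 to 1.26 and were not called, and its response differed between the lines (interaction adjusted p = 0.00259). NFIA-AS2, a noncoding RNA transcribed from the opposite strand inside the NFIA body, held 27, 21.8 and 21.0 CPM with decitabine in Loucy, against 5.59, 6.54 and 6.49 CPM with DMSO (log2 change 1.86, edgeR adjusted p = 4.1e-05). It was thus expressed with DMSO in the line in which NFIA was silent, and it stood at or below 0.765 CPM in every library of the other 4 lines, where NFIA was expressed. TM2D1, 218.3 kb beyond NFIA, rose by 0.54 on the log2 scale (adjusted p = 0.00794), a call lost without Loucy decitabine replicate 1 or DMSO replicate 3. Counts are by strand, so reads of NFIA and NFIA-AS2 are told apart.

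MILR1, an inhibitory immunoglobulin-like receptor of mast cells, lies 35.3 kb from PECAM1 on the side of its 5′ end. In Loucy it held 3.58, 3.80 and 3.38 CPM with decitabine, against 0.658, 0.642 and 1.02 CPM with DMSO (log2 change 1.91, edgeR adjusted p = 0.000393). It passed the filter on low counts only through those decitabine libraries, so it could be tested because it was high there. In PEER, the line with the second lowest DMSO level of PECAM1, it held 10 reads with decitabine and 0 with DMSO (adjusted p = 0.0407), a call lost without any of 5 single PEER libraries and without the mixed libraries (adjusted p = 0.0663). The test of a difference between the lines gave adjusted p = 0.0520 for MILR1. DDX5, an abundant RNA helicase 85.8 kb away, fell by 0.40 in Loucy (adjusted p = 0.0301, lost without 4 of the 6 Loucy libraries), and TEX2, 56.1 kb away, fell by 0.74 in PER-117 (adjusted p = 0.00272), where PECAM1 was expressed throughout.

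Near SUSD3 the calls did not track the silent lines. NINJ1, a cell-surface adhesion protein that ruptures the membrane of dying cells, lies 36.4 kb beyond the 3′ end of SUSD3. It was higher with decitabine in Loucy (7.71 ± 1.01 CPM against 3.39 ± 0.878 with DMSO, SD, n = 3; edgeR adjusted p = 0.00314) and in PER-117 (13.2 ± 0.843 against 7.30 ± 1.35 CPM; adjusted p = 0.0329). It was also higher in MOLT-16, where SUSD3 was at its highest (10.6 ± 4.51 against 3.15 ± 1.66 CPM; adjusted p = 0.00315). The MOLT-16 call was lost without decitabine replicate 1, with a log2 change of 1.43 (adjusted p = 0.0784), and the PER-117 call without any of 5 single libraries of that line. ZNF484, a zinc finger gene, and WNK2, a kinase, rose in TALL-1, with log2 changes of 1.37 (adjusted p = 0.0109) and 2.20 (adjusted p = 0.00460), and WNK2 passed the filter only through the TALL-1 decitabine libraries. The ZNF484 call was lost without the mixed TALL-1 library (log2 change 1.23, adjusted p = 0.0626) and without TALL-1 decitabine replicate 2. FGD3, 22.5 kb before SUSD3, and CARD19, 11.1 kb after it, were called in no line.

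**Figure D3:**
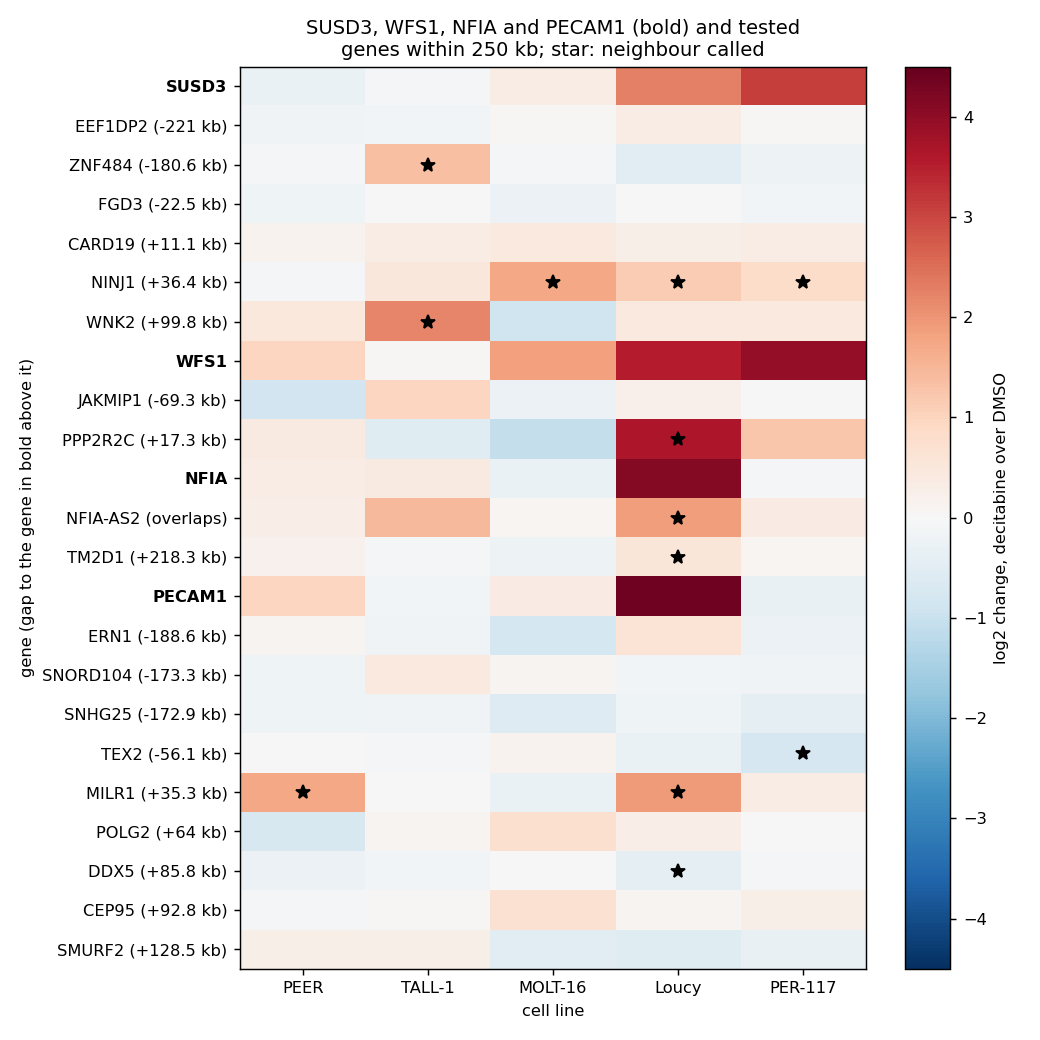
Log2 change with decitabine (colour) of the 4 genes, in bold, and of the 19 tested genes within 250 kb, by line. The distance in brackets runs from the body of the gene in bold above, negative towards lower coordinates, and a star marks a neighbour called at an adjusted p under 0.05, such as PPP2R2C, NFIA-AS2 and MILR1 in Loucy.

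Several inhibitory receptors of the kind PECAM1 belongs to rose in Loucy, while other such receptors and the phosphatases behind them were not called. The ITIM list is made of receptors with ITIMs, the phosphatases they recruit, and LAIR2, a relative of LAIR1 without ITIMs. It holds 23 genes beside PECAM1, of which 18 had enough reads. In Loucy 10 of the 18 were higher with decitabine and none lower, where 10.6% of all genes were higher and 4.13% lower, and their median log2 change was 1.00, against 0.03 for all genes. The list was chosen with earlier results of these data known, so this count is a description. Genes that are low in Loucy were called more often than all genes. Of the 467 under 1 CPM there and at 10 CPM or more in another line, with DMSO, 32.1% were called higher. The 3 genes LILRB1, LILRB2 and SIGLEC10 passed the filter only through the Loucy decitabine libraries, SIGLEC10 with those of PEER, so their calls were favoured by the filter. Of the other 15, 7 were higher and the median was 0.84. PDCD1, the checkpoint receptor PD-1 of T cells, held 2.23, 1.45 and 2.66 CPM with decitabine, against 0, 0.0584 and 0 CPM with DMSO, a ratio of reads of 96.5 with a counting interval of 16.9 to 3850 (edgeR adjusted p = 4.58e-06). CEACAM1, an adhesion receptor, held 5.54, 6.45 and 6.44 CPM with decitabine, against 0.724, 0.642 and 0.751 CPM with DMSO (log2 change 2.74, adjusted p = 6.74e-05). Both sets of Loucy libraries were far apart, as they were for PECAM1.

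LILRB1 and LILRB2, receptors for MHC class I, had log2 changes of 2.82 and 1.95 in Loucy (edgeR adjusted p = 0.000203 and 0.00116). CD33 and CD22, sialic acid binding receptors of myeloid cells and B cells, had 1.57 and 1.51 (adjusted p = 0.000192 and 0.00115), and CD33 held 19.1, 18.6 and 21.3 CPM with decitabine, against 6.25, 6.54 and 6.49 CPM with DMSO. SIGLEC10, CD300A, KLRG1 and BTLA were the other 4 that rose, of which BTLA, with 16 reads against 2, lost its call without any of 4 single Loucy libraries. The phosphatases PTPN6, PTPN11 and INPP5D, which act behind these receptors, had log2 changes of -0.09, -0.32 and -0.07 in Loucy and were not called. Their DMSO means there were 31.9, 56.0 and 242 CPM. The receptors LAIR1, CD5, SIRPA and CD72 were not called in Loucy either, with log2 changes of -0.15, 0.17, 0.38 and 0.31. They stood at 52.6, 74.2, 11.4 and 9.31 CPM with DMSO. LAIR2, at 0.685 CPM with DMSO, had 0.94 and was not called. The part of the DMSO level in these differences was not tested. In PEER 2 of the 18 were higher (PTPN6 and PDCD1) and none lower, in TALL-1 1 was higher (PTPN6), in MOLT-16 none was called, and in PER-117 1 was higher (CD72) and 2 lower (INPP5D and LAIR1). Of all genes 3.54% were higher in PEER, 6.74% in TALL-1, 2.19% in MOLT-16 and 8.67% in PER-117, where 3.16% were lower. The PEER count fell to 0 without PEER decitabine replicate 2, the TALL-1 count to 0 without TALL-1 decitabine replicate 1 and both PER-117 counts to 0 without PER-117 decitabine replicate 1. INPP5D (adjusted p = 0.122 without that library) and LAIR1 (0.139) were also lost without other single libraries. Of the 6 receptors with the smallest p in Loucy, the response differed between the lines for PDCD1 (edgeR interaction adjusted p = 0.0149) and CD33 (0.00313). It was not shown to differ for CEACAM1 (0.278), CD22 (0.923), LILRB1 (0.968) or LILRB2 (0.996). With both treatments LILRB1 had 0 reads in TALL-1, MOLT-16 and PER-117, and LILRB2 had 0 in PEER, TALL-1 and MOLT-16. CD22 had 0 in TALL-1 and MOLT-16. Lines without reads could hardly show a difference, so nothing is read from that test for LILRB1, LILRB2 and CD22.

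**Figure D4:**
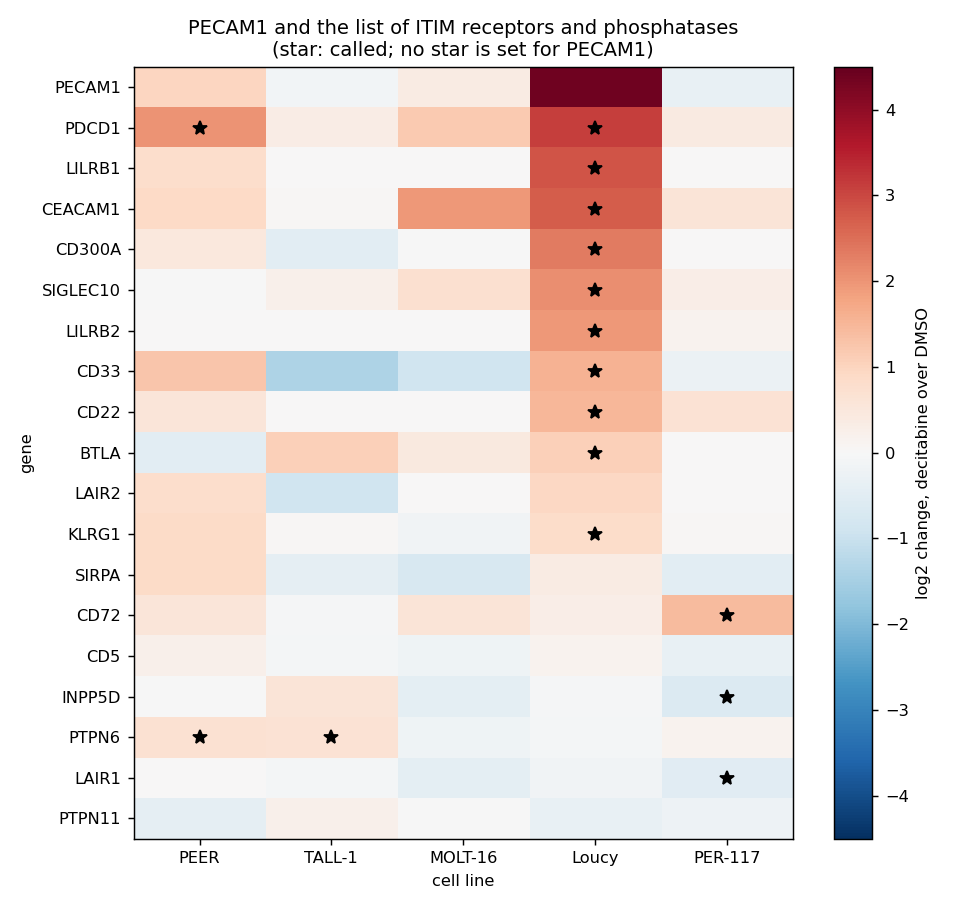
Log2 change with decitabine (colour) of PECAM1 and the 18 tested genes of the ITIM list in each line, with a star for those called at an adjusted p under 0.05. Loucy has 10 stars, all for higher genes, and the other lines have 0 to 3.

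Several lineage markers moved in Loucy beside that list, where 10.6% of all genes were higher and 4.13% lower. Of 10 myeloid markers 5 were tested and 3 were higher (MPO, CD33 and CEBPA), and the summed level of the 10 ran from 44.1 to 46.0 CPM in the decitabine libraries and from 10.5 to 13.1 CPM in the DMSO libraries. The same 10 summed to 34.6 to 44.6 CPM with decitabine in PEER and to 2.05 to 6.11 CPM with DMSO. Of 6 B-cell markers 5 were tested and 3 were higher, PAX5 and CD22 among them, with sums of 98.8 to 102 CPM with decitabine and 66.9 to 95.1 CPM with DMSO. CD33 and CD22 belong to the ITIM list too. Of 15 T-cell markers 14 were tested, 2 were higher (CD2 and CD1A, the second lost without any 1 of the 6 Loucy libraries) and CD3G was lower, with sums of 2010 to 2280 CPM with decitabine and 2660 to 2950 CPM with DMSO. Markers of the cells best known for CD31 were mostly at the bottom of the scale. Of 11 endothelial markers 5 were tested, and ENG and TIE1 were higher in Loucy. ENG passed the filter only through the Loucy decitabine libraries, and the TIE1 call was lost without any 1 of the 6 Loucy libraries. CDH5, the cadherin of endothelial junctions, had 0 reads with decitabine and 1 with DMSO in that line. Their summed level was 164 to 174 CPM with decitabine and 137 to 197 CPM with DMSO in Loucy, most of it from FLT1 and CLDN5. Of 8 platelet and megakaryocyte markers only ITGA2B was tested, and it stood at 48.2 ± 0.855 CPM with decitabine and 38.9 ± 3.72 CPM with DMSO in Loucy, not called. The part of these marker levels in the rise of PECAM1 and its relatives was not tested.

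The list of leukocyte and endothelial adhesion genes, with 27 genes beside PECAM1 and 19 tested, had 3 higher and 1 lower in Loucy, not far from the 10.6% and 4.13% of all genes. CD34, a sialomucin of blood progenitors, stood at 6.01 ± 1.02 CPM with decitabine and 0.350 ± 0.288 CPM with DMSO (log2 change 3.35, edgeR adjusted p = 1.07e-05). CD34 was also higher in PEER and PER-117, with log2 changes of 2.75 and 2.94. ITGA4, the alpha chain of the VLA-4 integrin, fell by 1.42 on the log2 scale (25.5 ± 2.76 CPM with decitabine against 68.4 ± 8.57 CPM; adjusted p = 6.17e-05). ICAM1 and ITGAM rose by 0.89 and 0.90, and both calls were lost without any 1 of the 6 Loucy libraries. In PER-117 3 were higher and 3 lower (8.67% and 3.16% of all genes), in PEER 2 higher (3.54%), in TALL-1 1 higher and 1 lower (6.74% and 6.12%) and in MOLT-16 1 higher (2.19%). ESAM, a junction protein of PECAM1's own superfamily named here after its values were seen, was the largest rise of this list in PER-117, at 13.6 ± 1.86 CPM with decitabine and 0.511 ± 0.453 CPM with DMSO (log2 change 4.19, adjusted p = 1.12e-06). Median log2 changes of the list were 0.18 in Loucy and 0.01 in PER-117, against 0.03 and 0.05 for all genes.

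Of the relatives of SUSD3 with the SUSD name, SUSD1, SUSD4 and SUSD6 were tested, and they were called in no line. SUSD2 and SUSD5 had too few reads to be tested. With so few genes tested, nothing is read from the absence of calls. The list of sushi-domain membrane proteins holds 18 genes beside SUSD3, of which 11 were tested. SUSD1 stood at 39.3 ± 8.14 CPM with decitabine and 31.1 ± 4.98 CPM with DMSO in PER-117, and SUSD6 at 206 ± 19.5 and 184 ± 18.3 CPM (n = 3 each). In PER-117, where SUSD3 was lowest, 1 of the 11 was higher, against 8.67% of all genes. It was CR2, a complement receptor of B cells (24.5 ± 5.65 CPM with decitabine, 8.93 ± 1.16 CPM with DMSO; log2 change 1.43, edgeR adjusted p = 0.000690). CD55 was higher in PEER, where 3.54% of all genes were. No list member was called in MOLT-16 (2.19% of all genes higher, 1.01% lower) or Loucy (10.6% and 4.13%).

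The other nuclear factor I genes that were tested did not follow NFIA in Loucy. NFIC and NFIX were tested and called in no line by edgeR at an adjusted p under 0.05, with NFIX in TALL-1 (unadjusted p = 0.0382) and NFIC in TALL-1 (0.0289) under 0.05 before adjustment. NFIB did not pass the filter, and with so few genes tested nothing is read from the absence of calls. In Loucy NFIC stood at 69.1 ± 1.41 CPM with decitabine and 66.5 ± 7.37 CPM with DMSO, and NFIX at 16.7 ± 3.06 and 13.9 ± 2.01 CPM. Loucy was thus silent for NFIA only among the family members tested.

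Genes of the compartment in which wolframin acts moved little as a group. Of 27 genes of the endoplasmic reticulum stress response beside WFS1, all tested, 2 were higher and 1 lower in PER-117, where WFS1 was lowest, near the 8.67% and 3.16% of all genes, with a median log2 change of -0.04, against 0.05 for all genes. CRELD2, an endoplasmic reticulum chaperone-like protein, rose by 0.68 (edgeR adjusted p = 0.00348), PPP1R15A, which restores translation after stress, rose by 0.92 (adjusted p = 0.00489), and XBP1, a transcription factor of the response, fell by 0.54 (adjusted p = 0.00399). In Loucy, where WFS1 reached its highest level, CRELD2 and PPP1R15A were higher and none was lower (10.6% and 4.13% of all genes), with a median of 0.06, and the CRELD2 call was lost without any of 4 single Loucy libraries. PEER had 1 higher (3.54%), TALL-1 2 higher (6.74%) and MOLT-16 1 lower (1.01%). Of 18 tested calcium-handling genes, 1 was higher and 2 lower in PER-117, against the same 8.67% and 3.16%. ITPR2, a calcium release channel, fell by 0.75 (adjusted p = 0.00217), ATP2A3, a calcium pump, fell by 0.64 (adjusted p = 0.0295), and STIM2, a calcium sensor, rose by 0.43 (adjusted p = 0.0216). The ATP2A3 call was lost without any of 5 single PER-117 libraries and that of STIM2 without any of 4. Loucy had 1 higher and 1 lower of these genes, TALL-1 1 and 2, and PEER and MOLT-16 none.

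Few genes of DNA methylation and decitabine metabolism were called. Of 17 tested, none was higher and 2 lower (DNMT3B and TET1) in Loucy, where 10.6% of all genes were higher and 4.13% lower, and 1 was higher (DNMT3A) and none lower in PER-117 (8.67% and 3.16%). In TALL-1 2 were higher (DNMT3B and TET1) and 2 lower (DNMT1 and UHRF1), against 6.74% and 6.12% of all genes. In PEER 1 was lower (0.961%) and in MOLT-16 none was called. DNMT3B, a methyltransferase that sets new methylation, stood at 125 ± 13.5 CPM with decitabine and 260 ± 26.7 CPM with DMSO in Loucy (log2 change -1.06, edgeR adjusted p = 0.000124). SLC29A2, a nucleoside transporter named here after its values were seen, was low in Loucy and PER-117. It stood at 0.0469 ± 0.0419 CPM with decitabine and 0.0195 ± 0.0337 CPM with DMSO in Loucy, and at 1.06 ± 0.596 and 0.471 ± 0.179 CPM in PER-117. In PEER, TALL-1 and MOLT-16 its DMSO means were 18.1, 20.7 and 26.6 CPM, and it was called in no line. Of the 4 genes only SUSD3 was under 1 CPM with DMSO in both Loucy and PER-117. SLC29A1, another such transporter named after its values were seen, stood at 57.2 CPM with DMSO in Loucy and 155 CPM in PER-117. The part of these transporters in the rises was not tested. DNMT1, the maintenance methyltransferase, stood at 494 ± 22.9 CPM with decitabine and 614 ± 89.7 CPM with DMSO in Loucy, and at 667 ± 95.3 and 844 ± 74.3 CPM in PER-117, not called in either. In TALL-1 it stood at 335 ± 62.9 CPM with decitabine and 877 ± 163 CPM with DMSO (log2 change -1.39, edgeR adjusted p = 0.00295). Its response differed between the lines (edgeR interaction adjusted p = 0.0197).

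For each gene the 3 protein-coding genes with the most similar course over the 10 group means were found among 12367. For PECAM1 they were GGA2, an adaptor of Golgi vesicles (Pearson r 0.963), GABPB2 (0.930) and TCTA (0.925). GGA2 held 9.05, 7.05 and 9.50 CPM with decitabine in Loucy, against 0.263, 0.409 and 0.273 CPM with DMSO (log2 change 3.94), and between 55.9 and 169 CPM in every TALL-1, MOLT-16 and PER-117 library. It thus shared with PECAM1 a single silent line and the size of the change there. For SUSD3 they were FAM167B (0.985), LGALS3BP (0.984) and SPSB3 (0.971). LGALS3BP, a secreted glycoprotein, averaged 2.52 CPM with decitabine and 0.222 CPM with DMSO in Loucy and 2.14 and 0.0707 CPM in PER-117, and 17.8 to 104 CPM in the decitabine groups of the other lines.

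For NFIA the most similar were TMEM187 (0.967), SNAPIN (0.948) and ABCB10 (0.931), and for WFS1 NXT2 (0.907), KLHL24 (0.883) and NAGK (0.858). These genes followed the order of the groups with smaller changes. TMEM187 averaged 8.28 CPM with decitabine and 4.48 CPM with DMSO in Loucy, and NXT2, a factor of RNA export, 80.4 and 23.5 CPM in PER-117. NXT2 was higher with decitabine in all 5 lines, including TALL-1 (log2 change 0.62), where WFS1 was not. The r values come from 10 means that share their libraries, and ranking by Spearman's rho keeps 2 of the 3 genes for SUSD3, 1 for NFIA and none for WFS1 or PECAM1.

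Many other genes were silent in a line and expressed elsewhere, and fewer than 1 in 2 of them rose 2-fold with no overlap between treatments. In Loucy 467 genes stood under 1 CPM with DMSO and at 10 CPM or more in another line with DMSO, SUSD3, NFIA and PECAM1 among them. Of these 47.3% were at least 2-fold higher with decitabine with no overlap, against 0.833% of the 8647 genes at 10 CPM or more in Loucy. In PER-117 the 877 low genes, SUSD3 among them, gave 33.4% against 0.951%. The shares were 22.8% of 316 low genes against 0.672% in PEER, 8.92% of 325 against 0.860% in MOLT-16 and 7.16% of 517 against 1.43% in TALL-1. WFS1 belongs to none of these groups, since no line held 10 CPM of it with DMSO. The DMSO values enter both the choice of the low genes and their change. The line with the lowest DMSO level was also the line with the largest log2 change in 34.9% of all genes, in 41.9% of the 2049 genes whose response differed between lines, and, as the choice required, in all 4 described here.

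**Figure D5:**
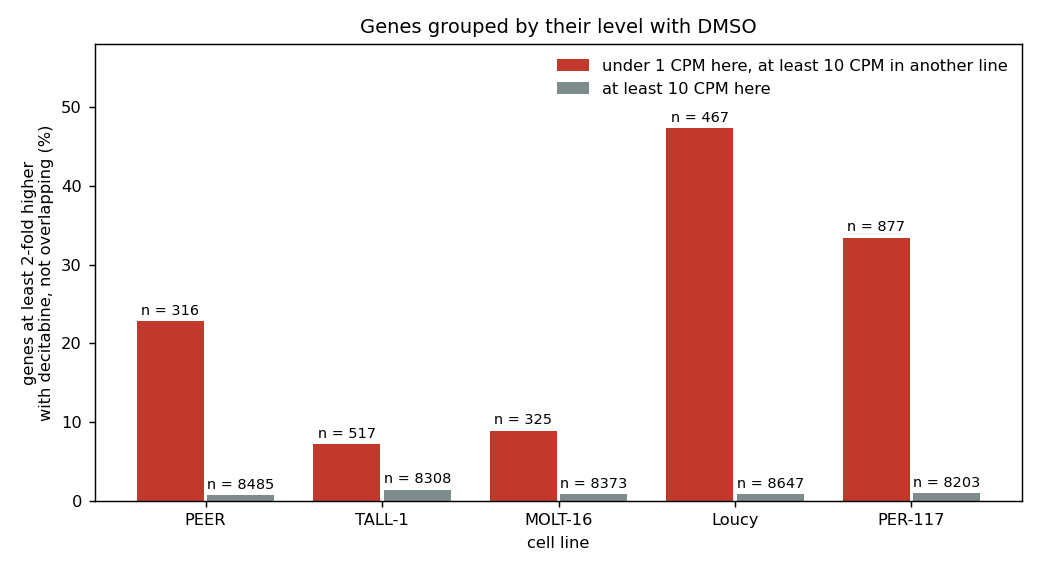
Share of genes that were at least 2-fold higher with decitabine with no overlap between treatments, by line, for genes under 1 CPM with DMSO in that line and at 10 CPM or more in another line (left bars) and genes at 10 CPM or more in that line (right bars). The left bars run from 7.16% in TALL-1 to 47.3% in Loucy and the right bars from 0.672% to 1.43%, and the number of genes stands above each bar. The mixed libraries of PEER, MOLT-16 and TALL-1 are included.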

How the data were processed

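RNA was measured in 30 libraries made with a QuantSeq 3′ FWD kit, per the labels' protocols. The submitters' processing notes name STAR 2.4.2a and GRCh38, and the deposited values are whole-number read counts per gene. The column of counts on the gene's own strand was used, 12.84 to 15.16 times as many as on the other strand. No source used here names the annotation behind the counting. Of 60554 identifiers, 56996 were matched to GENCODE 29. Titles and file names exchange PEER DMSO replicates 2 and 3, and the title was used.

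One edgeR 4.0.16 model (R 4.3.3) held the 10 group means of all 30 libraries, with TMM scaling, filterByExpr (minimum count 10), a prior count of 2 and quasi-likelihood F tests. Benjamini-Hochberg adjustment ran over the 15081 genes within each comparison. The prior count pulls log2 changes of genes with few reads towards 0, so ratios of reads are given where a group had 1 to 3. The SE comes from the spread of log2 CPM over the 3 libraries of each treatment. Counting intervals (95%, exact binomial) and floors of 3 counts cover counting error alone, and the labels name no molecular identifiers, so reads may not be independent molecules. The fit was tested on simulated data. The 4 genes, the gene lists, the marker lists, the distance of 250 kb and the 3 mixed libraries were chosen with earlier results of these data known. Genes named in the text were the 4, the tested neighbours, up to 6 called genes per list in the line where the list's own gene was lowest, and the 3 most similar genes, with others marked or listed as counts, and some results under this rule are not reported here. Alternatives were DESeq2 1.42.0, another scaling (RLE), no filter, each line fitted alone, unstranded counts, a replicate block, a prior count of 0.5, each library left out and the mixed libraries left out.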

Additional observations from a re-analysis of the deposited data

Results flagged for a closer look

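The genes below have responses that differ between the lines. For SUSD3, WFS1, NFIA and PECAM1 that difference was part of their choice and is given without a test. The log2 change of SUSD3 was 2.76 higher in PER-117 than in MOLT-16, that of WFS1 3.001 higher in PER-117 than in PEER, that of NFIA 4.17 higher in Loucy than in PER-117 and that of PECAM1 4.003 higher in Loucy than in MOLT-16.

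For the others the edgeR test of a difference between the 5 lines passed at an adjusted p under 0.05, and the largest and smallest log2 changes lay as far apart as follows. Among neighbours, PPP2R2C spanned 4.69 between Loucy and MOLT-16, ZNF484 1.87 between TALL-1 and Loucy, and NINJ1 1.84 between MOLT-16 and PEER. In the lists, CD34 spanned 4.47 and CD33 2.97, both between Loucy and TALL-1, and PDCD1 2.75 between the same lines. The TALL-1 ends of these spans rest on few reads. CD34 had 2 with decitabine and 9 with DMSO, CD33 0 and 6, and PDCD1 6 and 4. The TALL-1 DMSO levels of CD34 and CD33 were uneven, at 0.537 ± 0.930 and 0.358 ± 0.620 CPM (SD, n = 3). The part of the mixed TALL-1 library in them was not tested. PPP1R15A spanned 2.71 between TALL-1 and MOLT-16, and ITPR2 1.00 and XBP1 0.93 between PEER and PER-117. Of the genes most similar in course, GGA2 spanned 3.96 between Loucy and PER-117, LGALS3BP 3.09 between PER-117 and PEER, ABCB10 1.74 between Loucy and TALL-1, GABPB2 1.61 between Loucy and PEER, and NXT2 1.14 between PER-117 and TALL-1. These similar genes were picked for following the 4 genes over the same libraries, which favoured such a difference. Their spans are therefore descriptions, and nothing is read from their test. Groups of 3 libraries were not searched for outlying samples.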

How the results depend on the processing

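For the 4 genes, changes in the lines under 1 CPM with DMSO kept their direction with each library left out, by DESeq2, with a prior count of 0.5 and without the mixed libraries. Changes near 0 turned: WFS1 in TALL-1 was -0.05 without TALL-1 DMSO replicate 3, NFIA in PER-117 0.06 without PER-117 decitabine replicate 2 and PECAM1 in TALL-1 0.03 without TALL-1 decitabine replicate 2. Sizes moved with how low counts are treated. The differences named above for SUSD3, WFS1, NFIA and PECAM1 were 3.35, 5.73, 7.71 and 5.12 by DESeq2. With a prior count of 0.5 those of WFS1, NFIA and PECAM1 were 4.45, 5.80 and 4.73, and with each line fitted alone those of NFIA and PECAM1 were 4.97 and 4.396. The number of lines with PECAM1 at least 2-fold higher and separate was 2 without the mixed libraries and 1 to 2 with 1 library left out (2 without PEER decitabine replicate 1 or DMSO replicate 2).

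Counts over all genes moved more. PEER higher and lower calls were 276 and 30 with the line alone, and lower calls were 89 with RLE and 247 with no filter. MOLT-16 higher and lower calls were 514 and 283 by DESeq2, 652 and 374 with no filter, 58 and 1 alone, and 1539 and 1249 without the mixed libraries. Lower calls were 1344 alone and 1259 without the mixed libraries in Loucy, and 1390 and 881 in PER-117. Genes differing between lines were 3281 by DESeq2, 3129 with no filter and 4373 without the mixed libraries. With 1 library left out the ranges were 335 to 693 higher and 34 to 230 lower in PEER, 493 to 1159 lower in TALL-1, 150 to 1139 higher and 29 to 850 lower in MOLT-16, 287 to 898 lower in Loucy, 206 to 621 lower in PER-117 and 1588 to 3807 differing between lines. The cause was not tested.

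Outside PER-117, replicate numbers did not pair the samples. Deviations of same-numbered libraries correlated at -0.19 to 0.22, and 12 of 30 libraries correlated best with their own number. These included all 6 PER-117 libraries, where the correlations were 0.07 to 0.20. Samples of that line may therefore be paired, which the main fit did not use. With a replicate block the calls were 499 higher and 139 lower in PEER, 1037 and 912 in TALL-1, 377 and 190 in MOLT-16, 1670 and 760 in Loucy and 1339 and 567 in PER-117, with 2030 genes differing between lines, 12 neighbour calls and 10 ITIM genes higher in Loucy. Neighbour calls were 10 to 18, and those ITIM genes 9 to 10, with 1 library left out. Depth limits low genes most in PEER, TALL-1 and MOLT-16, whose libraries were mostly shallower than those of Loucy and PER-117.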
